A study of Homo sapiens with 12 samples.

Results

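Mitosis depends on a set of genes, and the RNA of many but not all of them is made mainly in the G2 and M phases of the cell cycle. Here 50 such genes are described across 2 colon cancer cell lines. The 50 genes were chosen by name for their known roles in mitosis and in the entry into it, with earlier results of these data known. Shares of members that passed, set beside those of all genes, are therefore descriptions and not independent tests. Each gene was matched by its symbol and identifier. All 50 were found among the 62426 genes of the count table, of which 40400 had any count, and all 50 passed the filter on low counts in every comparison. RNA came from HCT116 and SW480, both established human colon cancer lines, in 12 libraries with 2 in each of 6 groups. In each line, CD44s-OE cells carried a plasmid for the standard isoform of CD44, a receptor for hyaluronan, and CD44v6-OE cells carried a plasmid for the variant isoform v6. Both kinds of cells were selected with Geneticin, and the headers of their libraries call them pools. Parental cells of the same line were the controls. Selected cells with an empty plasmid are not among the 12 libraries, so the isoform, the plasmid and the selection cannot be told apart. The labels do not say whether the replicates of a group were separate cultures, so p-values measure the spread between these libraries, which may be technical.

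Cells enter mitosis when the kinase CDK1, bound to cyclin B, becomes active. They leave it when the anaphase-promoting complex marks cyclin B and securin for destruction. Between these events, kinetochores attach chromosomes to the spindle, and the spindle checkpoint holds the complex back until all are attached. Many of these genes are repressed in resting cells by the DREAM complex and switched on late in the cycle by MuvB with B-Myb and then FOXM1, which act at promoter elements named CHR and, for the factor NF-Y, CCAAT. In a growing culture their RNA is commonly read as a mark of cycling cells. In bulk RNA, fewer cells in G2 and mitosis and less RNA per cell cannot be told apart.

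Total counts ranged from 43102156 to 52811889 per library. Total CD44 counts sum all isoforms, and they did not show the overexpression: they ranged from 509 to 552 CPM (counts scaled to a common library size) in HCT116 and from 135 to 203 CPM in SW480, and CD44s-OE differed from parental cells by a log2 fold change of 0.01 in HCT116 (edgeR adjusted p = 0.959) and 0.12 in SW480 (edgeR adjusted p = 0.777). For CD44v6-OE the log2 fold change was -0.09 in HCT116 (edgeR adjusted p = 0.811) and -0.34 in SW480 (edgeR adjusted p = 0.575), where both CD44v6-OE libraries, at 135 and 147 CPM, were below the parental ones, at 172 and 165 CPM. Groups are therefore called here as they are labelled. The 10 colon epithelium markers summed to 5846 to 17427 CPM, against 0.814 to 5.66 CPM for 7 leukocyte markers and 0.646 to 2.14 CPM for 4 endothelial markers. The 8 fibroblast markers summed to 32.3 to 58.3 CPM in HCT116 CD44s-OE, 32.7 to 35.4 CPM in HCT116 CD44v6-OE and 13.4 to 19.2 CPM in HCT116 parental cells, with COL1A1 the highest of them and DCN and LUM at 0 in both CD44s-OE libraries. The fibroblast collagen COL3A1 was at 7.67 and 20.1 CPM in HCT116 CD44s-OE and 0.839 and 1.01 CPM in HCT116 CD44v6-OE, against 0.114 and 0.117 CPM (6 counts each) in HCT116 parental cells. CDH1 (E-cadherin, of epithelial junctions) was at 22.2 and 14.6 CPM in HCT116 CD44s-OE and 50.4 and 48.7 CPM in HCT116 CD44v6-OE, against 65.4 and 46.8 CPM in HCT116 parental cells. It fell by 1.61 in CD44s-OE relative to parental cells, as a log2 fold change (edgeR adjusted p = 0.00541). Not all markers of these lists went this way. The epithelial KRT19 was at 1313.5 and 1396 CPM in HCT116 CD44s-OE, against 1267 and 1195 CPM in HCT116 parental cells. KRT20 was at 2.37 and 2.99 CPM in HCT116 CD44s-OE, against 1.31 and 1.13 CPM in HCT116 parental cells. The fibroblast marker PDGFRB was at 0.141 and 0.114 CPM in HCT116 CD44s-OE, against 0.741 and 0.293 CPM in HCT116 parental cells. The epithelial markers summed to 8549 to 9992 CPM in SW480 CD44s-OE, 13849 to 15111 CPM in SW480 CD44v6-OE and 17379 to 17427 CPM in SW480 parental cells. Of the 7 tested, 6 were lower in both SW480 CD44s-OE libraries than in both parental ones, with no threshold applied. Over all genes tested in that comparison, 50.3% had a log2 fold change above 0. The share of all genes whose libraries separated in this way is not given. The other marker, VIL1, went up, at 13.3 and 18.8 CPM in SW480 CD44s-OE against 5.92 and 12.7 CPM in SW480 parental cells. The part of these markers in the results was not tested. In 2 groups, HCT116 CD44s-OE and SW480 parental cells, the members stood at different levels in the 2 libraries, so results that rest on these libraries are given with and without them.

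Per length of exon, the members spanned a wide range of levels. In HCT116 parental cells the group means ran from 0.127 RPKM (CPM per kilobase of exon) for NUSAP1 to 408 RPKM for CDC20, with a median of 15.6 RPKM. CDC20, which activates the anaphase-promoting complex, was first in both parental lines, at 249.5 ± 12.3 RPKM in SW480 and 408 ± 45.1 RPKM in HCT116 (SD, n = 2 each). It was followed by UBE2C, the ubiquitin-conjugating enzyme of that complex, at 212 ± 45.1 RPKM in SW480 and 147 ± 7.48 RPKM in HCT116. CCNB1 (cyclin B1) and TPX2, an activator of Aurora A on the spindle, had neighbouring levels in HCT116, at 111 ± 7.25 and 111 ± 4.03 RPKM, which do not differ beyond their spread. The lowest member counts were those of NUSAP1, at 0.171 to 1.03 CPM, and PRC1, at 1.74 to 3.56 CPM. For both genes a further gene model lies on the same strand, over 81.4% of the exon bases of NUSAP1 and 57.6% of those of PRC1, and reads shared by 2 models were not assigned to either. The values of these 2 genes, a spindle microtubule binder and a midzone crosslinker, are therefore uncertain. Every other member had at least 405 counts in each library.

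Promoter sequences, taken from RefSeq on GRCh38.p14 from 250 bases before to 50 bases after the gene start, were on hand for 41 of the 50 members. They are shown for PLK1, CDC20, CCNB1 and MYBL2, on which the comparison of HCT116 CD44s-OE with parental cells turned, and for TOP2A and CENPF, whose replicates of that group went opposite ways. Capitals mark 2 motifs. The first was CCAAT, and it was searched on both strands. The CHR motif was TTTGAA, also searched on both strands. No other form of the CHR element was searched, so a promoter without these letters may still hold one. Matches of these motifs do not overlap each other in the sequences shown.
PLK1 (chr16:23678639-23678938, plus strand): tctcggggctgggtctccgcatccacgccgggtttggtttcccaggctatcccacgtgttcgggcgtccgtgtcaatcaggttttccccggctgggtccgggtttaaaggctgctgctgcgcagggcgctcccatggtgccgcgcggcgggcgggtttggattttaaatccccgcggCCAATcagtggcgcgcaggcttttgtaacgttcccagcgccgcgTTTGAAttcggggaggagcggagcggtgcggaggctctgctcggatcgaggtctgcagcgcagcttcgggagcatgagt
CDC20 (chr1:43358731-43359030, plus strand): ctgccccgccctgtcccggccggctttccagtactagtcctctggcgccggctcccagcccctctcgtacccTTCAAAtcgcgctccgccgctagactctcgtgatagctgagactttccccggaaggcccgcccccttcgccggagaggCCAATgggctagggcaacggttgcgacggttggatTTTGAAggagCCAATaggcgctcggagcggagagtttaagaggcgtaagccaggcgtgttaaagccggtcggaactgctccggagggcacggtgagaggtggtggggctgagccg
CCNB1 (chr5:69166900-69167199, plus strand): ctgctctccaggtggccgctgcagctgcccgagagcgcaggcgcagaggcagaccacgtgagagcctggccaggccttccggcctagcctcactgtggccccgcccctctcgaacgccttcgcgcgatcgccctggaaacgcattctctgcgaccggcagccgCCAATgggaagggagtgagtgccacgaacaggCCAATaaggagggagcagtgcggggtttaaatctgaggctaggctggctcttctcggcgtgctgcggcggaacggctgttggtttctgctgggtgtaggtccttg
MYBL2 (chr20:43666864-43667163, plus strand): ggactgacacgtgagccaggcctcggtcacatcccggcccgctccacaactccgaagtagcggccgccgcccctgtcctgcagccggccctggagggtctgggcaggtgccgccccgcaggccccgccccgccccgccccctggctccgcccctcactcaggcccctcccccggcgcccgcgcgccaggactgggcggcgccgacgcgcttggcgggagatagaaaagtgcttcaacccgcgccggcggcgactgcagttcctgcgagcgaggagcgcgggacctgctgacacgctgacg
TOP2A (chr17:40417847-40418146, minus strand): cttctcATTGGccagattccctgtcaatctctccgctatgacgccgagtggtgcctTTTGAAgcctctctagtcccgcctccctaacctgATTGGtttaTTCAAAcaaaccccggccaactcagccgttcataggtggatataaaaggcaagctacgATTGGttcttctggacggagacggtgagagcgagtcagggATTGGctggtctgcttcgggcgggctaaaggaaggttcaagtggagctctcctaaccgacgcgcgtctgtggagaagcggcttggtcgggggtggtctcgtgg
CENPF (chr1:214602945-214603244, plus strand): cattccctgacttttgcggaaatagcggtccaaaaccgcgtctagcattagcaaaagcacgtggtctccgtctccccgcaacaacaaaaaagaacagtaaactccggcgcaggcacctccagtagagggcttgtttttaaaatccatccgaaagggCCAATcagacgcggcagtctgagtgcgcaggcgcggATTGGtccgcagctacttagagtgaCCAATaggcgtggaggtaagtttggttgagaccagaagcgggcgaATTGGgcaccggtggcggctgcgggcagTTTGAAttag

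In the PLK1 promoter, CCAAT began 73 bases before the gene start and the CHR motif 29 bases before it. CDC20 had 2 CCAAT and 2 CHR motifs, CCNB1 had 2 CCAAT motifs and 0 matches of TTTGAA, and MYBL2 had neither set of letters. TOP2A had 4 CCAAT and 2 CHR motifs, and CENPF had 4 CCAAT motifs and 1 CHR motif. Counting a gene as positive if any of its listed promoters held the motif, CCAAT was found for 32 of the 41 members (78.0%), against 39.7% of the 27305 genes in the table. The CHR motif was found for 31 of 41 members (75.6%), against 18.2% of all genes, and both motifs for 24 members (58.5%), against 7.26% of all genes. A match of letters is a description of the window and says nothing of binding. The promoters of AURKA, BIRC5, CDCA2, FOXM1, KNL1, RACGAP1, TPX2, TTK and UBE2C are not shown or counted.

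The first comparison asked how CD44s-OE HCT116 cells differed from parental HCT116 cells in these genes. Of the 50 members, 18 fell and 0 rose at an edgeR adjusted p under 0.1, a share of 36.0% lower, against 5.71% lower and 8.45% higher among all 17335 genes tested. The median log2 fold change of the members was -0.29, against 0.04 for all genes tested. Of the 50 members, 38 lay below 0, while 53.7% of all genes tested lay above 0. The 18 genes fell by 0.40 to 0.86 on the log2 scale. At the study's minimum of 1.5 on the log2 scale 0 members passed, against 0.387% of all genes lower and 2.71% higher. At an unadjusted p under 0.05, 22 members were lower and 1 was higher, against 10.6% of all genes tested lower and 14.6% higher. DESeq2 called 20 members lower and 0 higher. Shares of all genes called by DESeq2 are not given, so its counts, here and below, stand without a background.

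**Figure D1:**
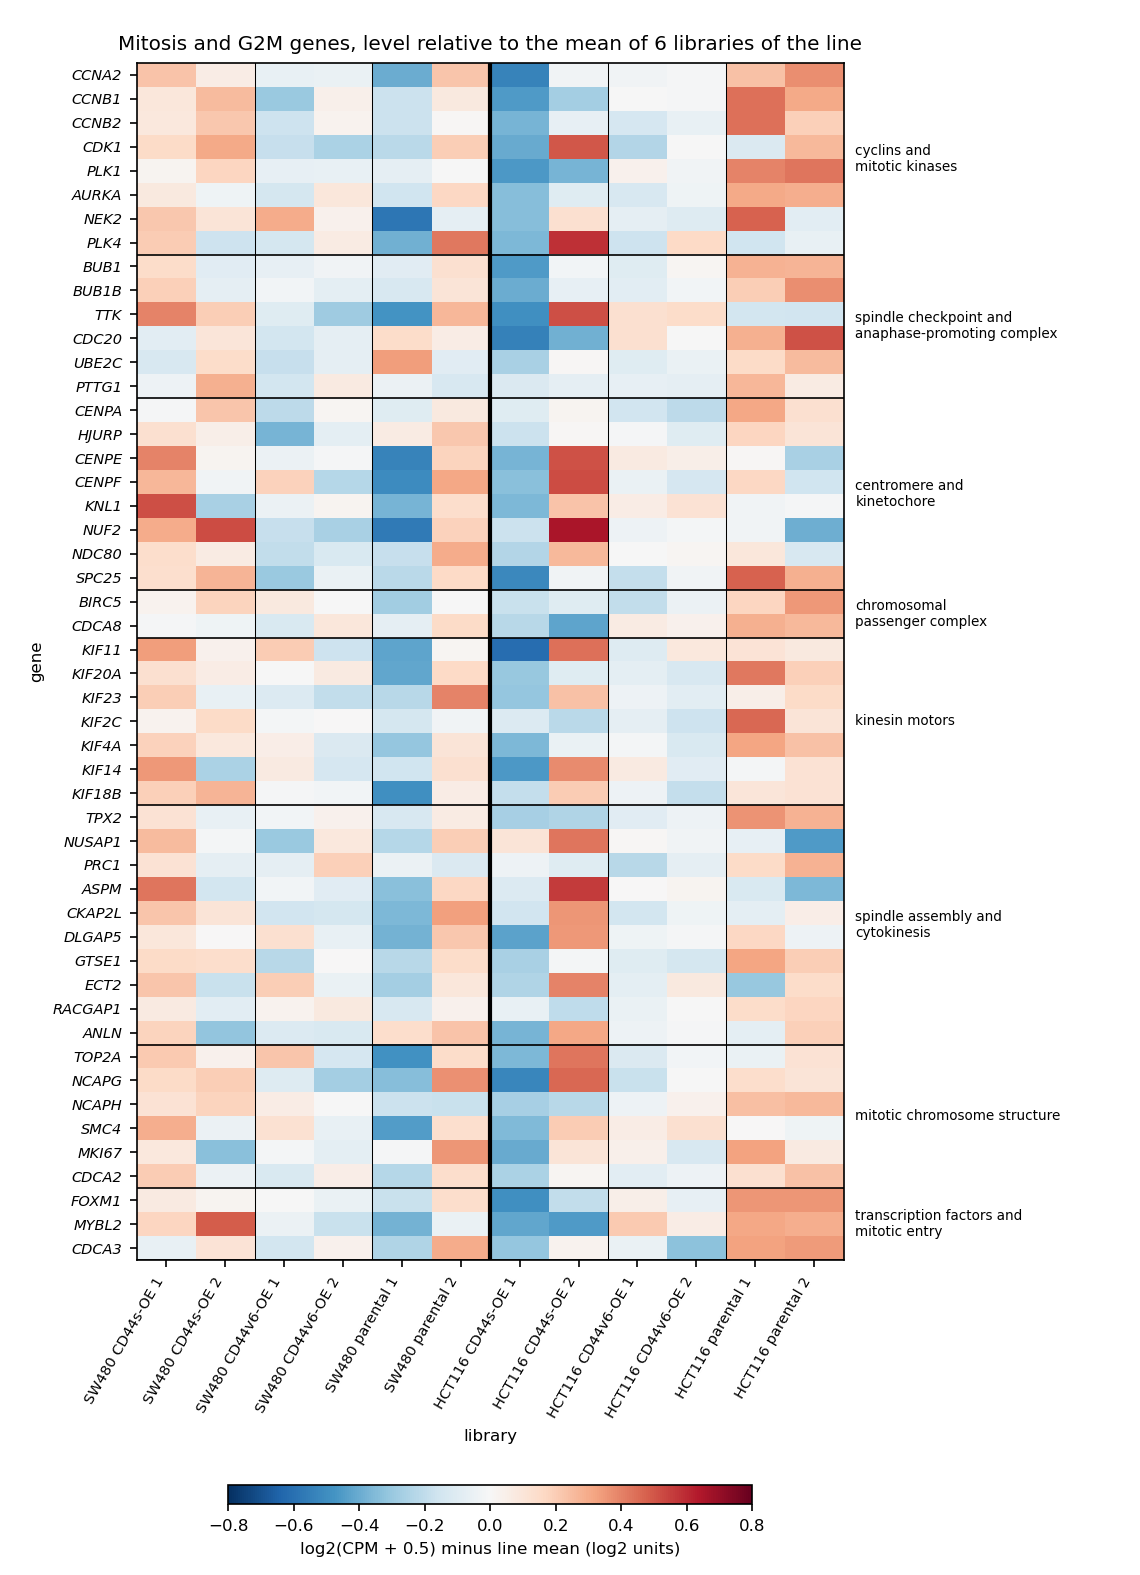
Level of each of the 50 mitosis and G2M genes (down the page, grouped by role) in each of the 12 libraries (across), as log2(CPM + 0.5) minus the gene's mean over the 6 libraries of its line; red is above and blue below that mean, in log2 units. In HCT116, the CD44s-OE 1 column has 1 gene above the mean, the CD44s-OE 2 column has 28, and each parental column has 38 genes above it.

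Among the cyclins and mitotic kinases, 5 of 8 fell in HCT116 CD44s-OE cells. PLK1, the polo-like kinase that drives entry into mitosis and chromosome segregation, lies on chromosome 16 of hg19 from 23688977 to 23701688. It was at 228 and 243 CPM in the CD44s-OE libraries, 323 and 308 CPM in the CD44v6-OE libraries and 415 and 424 CPM in the parental libraries of HCT116. The 3 groups did not overlap, and PLK1 fell by 0.83 in CD44s-OE relative to parental cells, as a log2 fold change (SE 0.12, edgeR adjusted p = 0.00532). CCNB1 was at 152 and 173 CPM in the CD44s-OE libraries, 208 and 207 CPM in the CD44v6-OE libraries and 283 and 258 CPM in the parental ones. It fell by 0.73 in CD44s-OE relative to parental cells (SE 0.13, edgeR adjusted p = 0.0119), again without overlap. CCNA2 (cyclin A2), CCNB2 (cyclin B2) and AURKA (Aurora kinase A, which matures the spindle poles) fell by 0.56, 0.53 and 0.51. AURKA was at 67.3 and 79.6 CPM in the CD44s-OE libraries and 78.1 and 83.4 CPM in the CD44v6-OE libraries, against 105 and 104 CPM in the parental ones. CDK1, the kinase that cyclin B activates, was at 42.3 and 79.5 CPM in the CD44s-OE libraries and 47.5 and 56.0 CPM in the CD44v6-OE libraries, against 51.6 and 67.2 CPM in the parental ones. Its CD44s-OE libraries lay on both sides of the parental ones, and its log2 fold change was 0.04 (edgeR adjusted p = 0.949). NEK2, which separates centrosomes, and PLK4, which duplicates centrioles, had log2 fold changes of -0.32 and 0.31 and did not pass.

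Of the 6 members of the spindle checkpoint and the anaphase-promoting complex, 3 fell. CDC20, on chromosome 1 of hg19 from 43824652 to 43828874, was at 429 and 478 CPM in the CD44s-OE libraries, 683 and 622 CPM in the CD44v6-OE libraries and 759 and 886 CPM in the parental ones. It had the largest change of the 18 in this direction, falling by 0.86 (SE 0.13, edgeR adjusted p = 0.0074), and its 3 groups did not overlap. BUB1, a checkpoint kinase at kinetochores, was at 60.9 and 82.2 CPM in the CD44s-OE libraries and 78.2 and 84.3 CPM in the CD44v6-OE libraries, against 102 and 101 CPM in the parental ones, and fell by 0.50. BUB1B, which encodes the checkpoint protein BubR1, fell by 0.51. UBE2C was at 137 and 166 CPM in the CD44s-OE libraries and 154 and 159 CPM in the CD44v6-OE libraries, against 183 and 196 CPM in the parental ones. PTTG1 (securin, the inhibitor of separase) was at 128 and 132 CPM in the CD44s-OE libraries and 133 and 132 CPM in the CD44v6-OE libraries, against 168 and 146 CPM in the parental ones. Their CD44s-OE and parental libraries did not overlap either, but their log2 fold changes of -0.32 and -0.27 did not pass (edgeR adjusted p = 0.168 and 0.223). TTK, the checkpoint kinase Mps1, had a log2 fold change of 0.25 and did not pass.

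Both transcription factors fell. MYBL2 (B-Myb, which joins MuvB at late cell cycle promoters), on chromosome 20 of hg19 from 42295659 to 42345135, was at 214 and 209 CPM in the CD44s-OE libraries, 331 and 299 CPM in the CD44v6-OE libraries and 356 and 350.0 CPM in the parental ones. It fell by 0.74 in CD44s-OE relative to parental cells (SE 0.12, edgeR adjusted p = 0.00911). FOXM1, the forkhead factor that follows it at such promoters, was at 162 and 199 CPM in the CD44s-OE libraries, 236 and 218 CPM in the CD44v6-OE libraries and 291 and 291 CPM in the parental ones, and it fell by 0.69 (SE 0.13, edgeR adjusted p = 0.0191). In both genes all CD44s-OE libraries were below all others of the line. CDCA3, a trigger of mitotic entry through the destruction of WEE1, was at 50.4 and 63.8 CPM in the CD44s-OE libraries, against 78.4 and 79.4 CPM in the parental ones, and its log2 fold change of -0.47 did not pass (edgeR adjusted p = 0.103).

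Both members of the chromosomal passenger complex, which corrects faulty attachments to the spindle, fell as well. CDCA8 (borealin) fell by 0.60 and BIRC5 (survivin) by 0.40. BIRC5 was at 142 and 150.3 CPM in the CD44s-OE libraries and 141 and 156 CPM in the CD44v6-OE libraries, both below the 181 and 205 CPM in the parental ones. Of 7 kinesin motors, KIF20A (cytokinesis), KIF4A (chromosome condensation and the midzone) and KIF2C (a depolymerase of kinetochore microtubules) fell, by 0.51, 0.48 and 0.45. KIF11, KIF14, KIF18B and KIF23 lay between -0.11 and -0.03 and did not pass.

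In the other groups of roles few members passed. Of 8 centromere and kinetochore genes, only SPC25 of the NDC80 complex fell, by 0.65 (SE 0.20, edgeR adjusted p = 0.0767), with 14.1 and 20.1 CPM in the CD44s-OE libraries and 28.6 and 25.0 CPM in the parental ones. CENPA, the centromeric histone, was at 19.7 and 21.4 CPM in the CD44s-OE libraries and 18.8 and 18.1 CPM in the CD44v6-OE libraries, against 26.2 and 23.1 CPM in the parental ones (log2 fold change -0.26, edgeR adjusted p = 0.332). CENPF, a large kinetochore protein, was at 85.0 and 155 CPM in the CD44s-OE libraries and 103 and 97.9 CPM in the CD44v6-OE libraries, against 120.3 and 96.2 CPM in the parental ones (log2 fold change 0.15, edgeR adjusted p = 0.751). HJURP, CENPE, KNL1, NUF2 and NDC80 lay between -0.22 and 0.51 and did not pass. Of 10 genes of spindle assembly and cytokinesis, only TPX2 passed, and it fell by 0.57, with 267 and 271 CPM in the CD44s-OE libraries and 410.4 and 389 CPM in the parental ones. ASPM, a spindle pole protein, had a log2 fold change of 0.51 (edgeR adjusted p = 0.182), and NUSAP1, PRC1, CKAP2L, DLGAP5, GTSE1, ECT2, RACGAP1 and ANLN did not pass either. Of 6 genes of mitotic chromosome structure, only NCAPH of condensin I fell, by 0.50 (edgeR adjusted p = 0.0417). MKI67, the proliferation marker Ki-67 that coats mitotic chromosomes, was at 433 and 615 CPM in the CD44s-OE libraries and 588 and 524 CPM in the CD44v6-OE libraries, against 716 and 603 CPM in the parental ones (log2 fold change -0.33, edgeR adjusted p = 0.267), with overlap. TOP2A, the topoisomerase that untangles sister chromatids, was at 83.7 and 145 CPM in the CD44s-OE libraries and 99.2 and 106 CPM in the CD44v6-OE libraries, against 104 and 117 CPM in the parental ones (log2 fold change 0.05, edgeR adjusted p = 0.91). NCAPG, SMC4 and CDCA2 did not pass.

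**Figure D2:**
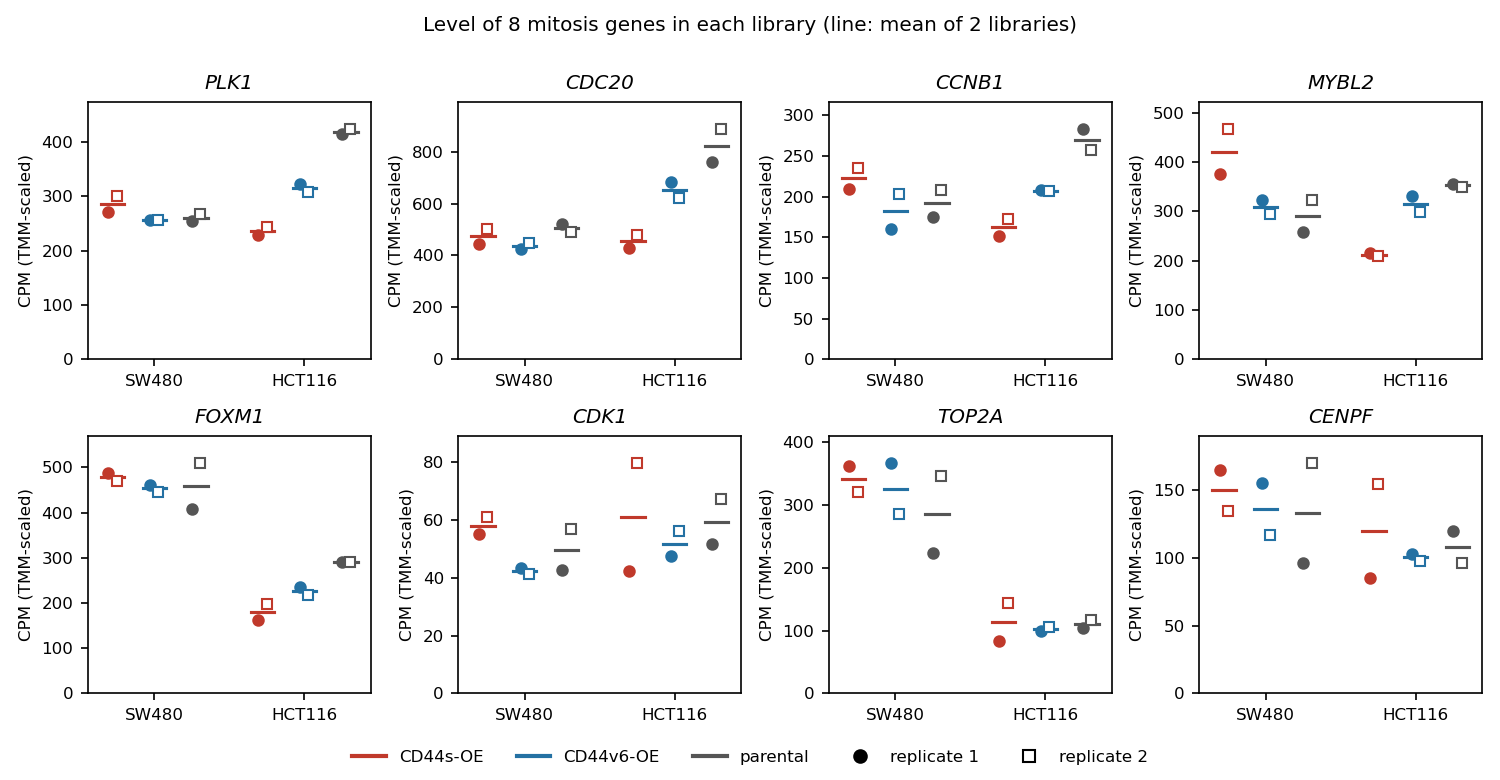
CPM after TMM scaling (vertical axis, from 0) of 8 genes in each library; colours give the group, filled circles replicate 1, open squares replicate 2 and lines the mean of 2 libraries, with SW480 on the left and HCT116 on the right of each panel. PLK1, CDC20, CCNB1, MYBL2 and FOXM1 are lower in both CD44s-OE libraries than in all other HCT116 libraries, while CDK1, TOP2A and CENPF have 1 CD44s-OE library below and 1 above the parental ones.

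The 2 HCT116 CD44s-OE libraries did not have the same level of these genes. Relative to the mean of the 2 parental libraries, the median member was at -0.47 in CD44s-OE 1 and at -0.18 in CD44s-OE 2, on the log2 scale. Of the 50 members, 45 were higher in CD44s-OE 2 than in CD44s-OE 1, with a median difference of 0.37, against 0.01 over all genes tested. The median difference between replicates 2 and 1 was 0.02 in HCT116 CD44v6-OE and -0.02 in HCT116 parental cells. Of the 50 members, 29 lay below the parental mean in both CD44s-OE libraries and 18 lay below it in CD44s-OE 1 and above it in CD44s-OE 2. Shares of all genes tested are not given for such counts by library, here and below, so they stand without a background. The 18 genes that lay on both sides were CDK1, TOP2A, CENPF, CENPE, KIF11, KIF14, KIF23, KIF18B, TTK, PLK4, NCAPG, SMC4, KNL1, NDC80, ANLN, ECT2, CKAP2L and DLGAP5. Their median exon length was 5482 bases, against 3697 bases for the 29 members below the parental mean in both libraries. Across genes, which are not independent, Spearman's rho between exon length and the difference between replicates 2 and 1 was 0.46 over the 50 members and 0.01 over all genes tested in HCT116 CD44s-OE. In SW480 CD44s-OE it was -0.68 over the members and -0.34 over all genes tested, and in SW480 parental cells 0.32 and 0.04. The part of length in the results was not tested.

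Each of the 18 genes that fell kept a log2 fold change below 0 when either CD44s-OE library was left out. All 18 are among the 29 members below the parental mean in both libraries. Their kept direction therefore follows from how they were picked and is not further support. Their log2 fold changes were -0.79 (PLK1) to -0.31 (BUB1) without CD44s-OE 1 and -0.95 (CDC20) to -0.41 (KIF2C) without CD44s-OE 2. Each of these fits leaves 1 library in a group, which takes the spread between its replicates out of the test. Counts of genes that pass in such fits, here and below, are not comparable with the main fit or its shares of all genes. CDK1, CENPF, KIF11, NCAPG, TOP2A and TTK were among those above 0 without CD44s-OE 1 and below 0 without CD44s-OE 2. Their direction rests on which library is kept. The count of 18 in the main fit also moved with the other libraries. It was 5 without parental 1, 4 without parental 2, and 7 without either CD44v6-OE library. PLK1, CDC20, CCNB1 and MYBL2 passed as lower under all 13 alternatives other than the fold minimum, with leave-one-out log2 fold changes of -0.89 to -0.79, -0.97 to -0.75, -0.84 to -0.65 and -0.76 to -0.73 in that order.

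**Figure D3:**
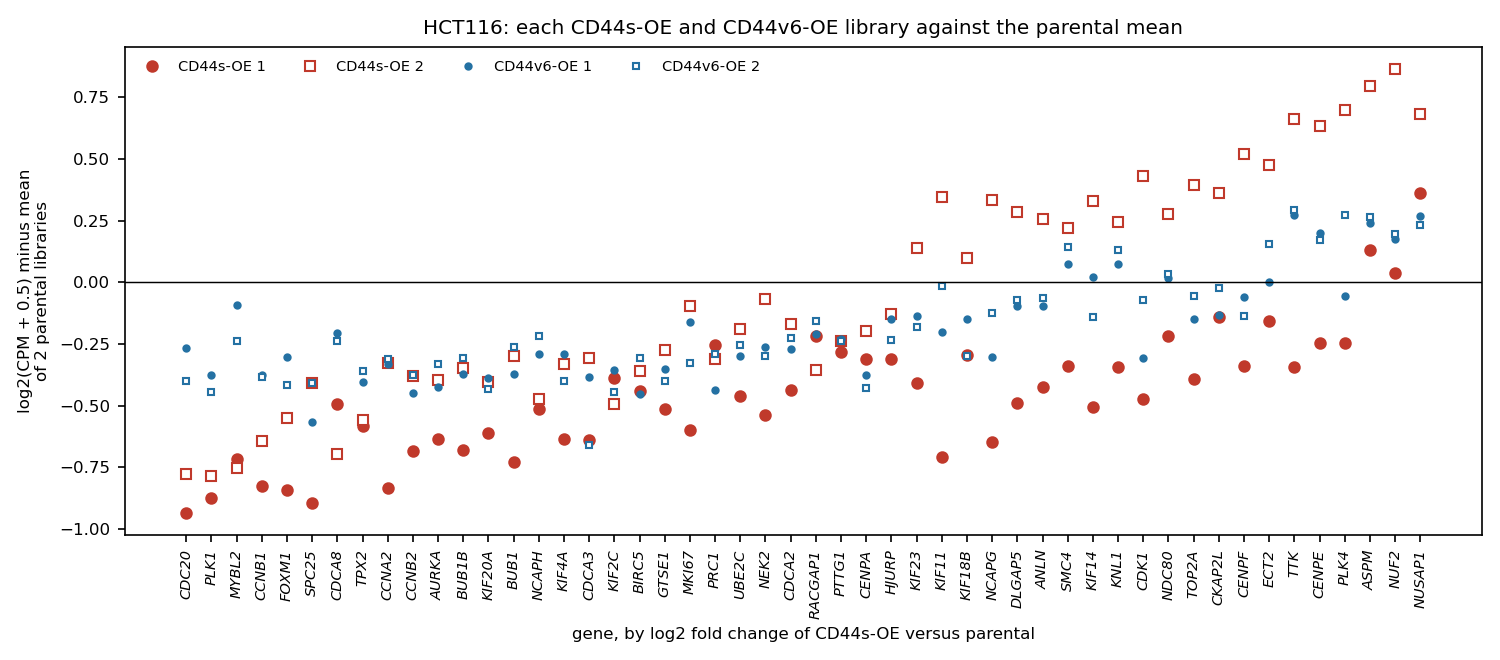
Change of each member in single HCT116 libraries, as log2(CPM + 0.5) minus the mean of the 2 parental libraries (vertical axis), with genes ordered by their log2 fold change in CD44s-OE versus parental cells; red marks are CD44s-OE, blue marks CD44v6-OE, filled circles replicate 1 and open squares replicate 2. Both red marks lie below 0 for 29 genes, including CDC20, PLK1, MYBL2 and CCNB1, and on both sides of 0 for 18 genes.

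Among the members that fell and had a promoter entry, the CHR motif was found for 7 of 14, and among the other members for 24 of 27, while CCAAT was found for 11 of 14 and 21 of 27. These shares are descriptions of the windows and letters searched, and other forms of the CHR element were not counted.

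The second comparison set CD44v6-OE against parental HCT116 cells. At an edgeR adjusted p under 0.1, 0 of the 50 members rose and 0 fell, against 1.44% higher and 0.0981% lower among all genes tested. The median log2 fold change of the members was -0.23, and 40 of 50 lay below 0 in each CD44v6-OE library relative to the parental mean. In the fit, 50.1% of all genes tested had a log2 fold change above 0. At an unadjusted p under 0.05, 16 members were lower and 0 higher, against 3.12% and 8.04% of all genes tested. The member nearest to the threshold was PLK1, with a log2 fold change of -0.41 (edgeR adjusted p = 0.194; 0.0887 with DESeq2, where it was the 1 member called). This count depended on the libraries in the fit: without the CD44s-OE libraries, 18 members passed as lower. The share of all genes that passed in that fit is not given, so the 18 stand without a background. In the fit of CD44v6-OE and parental cells alone, PLK1 fell by 0.41 (edgeR adjusted p = 0.0193), CCNB1 by 0.38 (edgeR adjusted p = 0.0324), AURKA by 0.38 (edgeR adjusted p = 0.0375), BIRC5 by 0.38 (edgeR adjusted p = 0.0438), FOXM1 by 0.36 (edgeR adjusted p = 0.0401) and CENPA by 0.41 (edgeR adjusted p = 0.0619), and BUB1 and CDC20 were also among the 18. MYBL2 had a log2 fold change of -0.16 in the fit of all 6 libraries (edgeR adjusted p = 0.664). This comparison shares its parental libraries with the first.

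Between the isoforms in HCT116, 1 member passed. MYBL2 fell in the CD44s-OE libraries when these were compared with CD44v6-OE, with a log2 fold change of -0.57 (SE 0.12, edgeR adjusted p = 0.0957), and 0 members rose, against 0.392% lower and 0.421% higher among all genes tested. It did not pass when a parental or a CD44v6-OE library was left out. CDC20 and PLK1 had log2 fold changes of -0.52 and -0.42 (edgeR adjusted p = 0.163 and 0.205; 0.051 and 0.0982 with DESeq2, which called 3 members lower). The count of members lower was 4 without CD44s-OE 1 and 13 without CD44s-OE 2, and 10 members were higher without CD44s-OE 1. The median over the members was -0.03.

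In SW480, 0 of the 50 members passed at an edgeR adjusted p under 0.1 in any of the 3 comparisons. For CD44s-OE against parental cells, 2.5% of all 17539 genes tested were higher and 2.22% lower. The median log2 fold change of the members was 0.15, against 0.00 for all genes tested. Of the 50 members, 41 lay above 0, against 50.3% of all genes tested. At an unadjusted p under 0.05, 5 members were higher and 0 lower, against 7.94% of all genes tested each way, so the share of members higher was near the background. MYBL2 came nearest, at 375 and 466 CPM in the CD44s-OE libraries, 323 and 295 CPM in the CD44v6-OE libraries and 257 and 322 CPM in the parental ones of SW480. Its CD44s-OE libraries were above all the others, with a log2 fold change of 0.54 relative to parental cells (SE 0.18, edgeR adjusted p = 0.148; 0.0829 with DESeq2, where it was the 1 member called). PLK1 was at 272 and 301 CPM in the CD44s-OE libraries, 256 and 257 CPM in the CD44v6-OE libraries and 255 and 267 CPM in the parental ones, and its log2 fold change in CD44s-OE was 0.13. CDC20, at 444 and 503 CPM in the CD44s-OE libraries and 425 and 448 CPM in the CD44v6-OE libraries, against 522 and 490.4 CPM in the parental ones, had a log2 fold change of -0.10, with overlap. CCNB1 was at 210.0 and 235 CPM in the CD44s-OE libraries and 160.5 and 203 CPM in the CD44v6-OE libraries, against 175 and 209 CPM in the parental ones. FOXM1 was at 487 and 469.6 CPM in the CD44s-OE libraries and 461 and 446 CPM in the CD44v6-OE libraries, all between the 408 and 509 CPM in the parental ones.

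The SW480 parental libraries stood apart from each other. SW480 parental 2 was higher than parental 1 in 45 of 50 members, with a median difference of 0.37, against 0.02 over all genes tested. TOP2A was at 224 and 347 CPM in parental 1 and 2, CENPF at 96.5 and 170.0 CPM, CDK1 at 42.6 and 56.7 CPM and AURKA at 159.5 and 199.8 CPM. In SW480 CD44s-OE, TOP2A was at 362 and 322 CPM, CENPF at 165 and 135 CPM, CDK1 at 54.9 and 61.0 CPM and AURKA at 188 and 174 CPM. For these 4 genes at least 1 CD44s-OE library lay between the parental libraries. In SW480 CD44v6-OE, TOP2A was at 367 and 286 CPM, CENPF at 156 and 117 CPM, CDK1 at 43.5 and 41.4 CPM and AURKA at 161 and 189.5 CPM. Without SW480 parental 2, 13 members passed as higher in CD44s-OE and the median was 0.33, and without SW480 parental 1, 0 passed and the median was -0.02.

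For CD44v6-OE against parental SW480 cells, the median was -0.02, with 22 members above 0, against 48.1% of all genes tested. All genes tested were higher in 0.542% and lower in 0.0285%. At an unadjusted p under 0.05, 1 member was higher and 1 lower, against 6.15% and 2.55% of all genes tested, DESeq2 called 0, and 1 member was higher without SW480 parental 2. The extremes were NEK2 at 0.48 and HJURP, the chaperone of the centromeric histone, at -0.36. For CD44s-OE against CD44v6-OE cells of SW480, the median was 0.14, with 44 of 50 above 0, against 51.5% of all genes tested. Of all genes tested, 0.57% passed as higher and 1.55% as lower. At an unadjusted p under 0.05, 3 members were higher and 0 lower, against 4.17% and 6.63% of all genes tested, and DESeq2 called 0. NUF2, a partner of NDC80, led at 0.66 (edgeR adjusted p = 0.34), with 19.1 and 22.4 CPM in the CD44s-OE libraries against 13.5 and 12.8 CPM in the CD44v6-OE libraries. In the fit without the parental libraries, or without either of them, 2 members passed as higher.

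Other members did not pass in SW480 either. BUB1 was at 128 and 109 CPM in the CD44s-OE libraries, 110.5 and 114 CPM in the CD44v6-OE libraries and 109 and 126 CPM in the parental ones. BIRC5 was at 101 and 112 CPM in the CD44s-OE libraries, 105 and 98.8 CPM in the CD44v6-OE libraries and 81.6 and 99.0 CPM in the parental ones. UBE2C was at 228 and 276 CPM in the CD44s-OE libraries, 219.8 and 237 CPM in the CD44v6-OE libraries and 315 and 234 CPM in the parental ones. The groups overlapped for BUB1, the CD44s-OE libraries of BIRC5 were above the parental ones, and those of UBE2C overlapped them. MKI67 was at 578 and 433 CPM in the CD44s-OE libraries, 541 and 519 CPM in the CD44v6-OE libraries and 543 and 699 CPM in the parental ones, the lowest log2 fold change of any member in SW480 CD44s-OE at -0.30 (edgeR adjusted p = 0.52). PTTG1 was at 201 and 251 CPM in the CD44s-OE libraries, 186 and 218 CPM in the CD44v6-OE libraries and 200.4 and 189 CPM in the parental ones. CENPA was at 35.4 and 41.7 CPM in the CD44s-OE libraries, 30.9 and 36.1 CPM in the CD44v6-OE libraries and 33.3 and 37.7 CPM in the parental ones. The CD44s-OE libraries of PTTG1 were above the parental ones, and those of MKI67 and CENPA overlapped them.

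Whether CD44s-OE moved these genes unequally in the lines was tested as a difference of log2 fold changes, SW480 minus HCT116, in 1 fit of all 12 libraries. Of the 50 members, 8 passed, all with a higher log2 fold change in SW480, against 1.65% of all 19567 genes tested in that direction and 2.27% in the other. The median difference over the members was 0.45, against 0.00 over all genes tested. Of the 50 members, 45 lay above 0, against 50.0% of all genes tested. MYBL2 had the largest difference, 1.298 (SE 0.22, edgeR adjusted p = 0.00892). PLK1 followed with 0.99 (SE 0.18, edgeR adjusted p = 0.0127) and CCNB1 with 0.97 (SE 0.21, edgeR adjusted p = 0.0319). NCAPH differed by 0.84, CCNB2 by 0.79, CDC20 by 0.78, FOXM1 by 0.77 and TPX2 by 0.65 (edgeR adjusted p = 0.0275 to 0.0947). NCAPH was at 82.8 and 86.6 CPM in the CD44s-OE libraries against 67.9 and 67.4 CPM in parental SW480 cells, and at 61.2 and 62.9 CPM in the CD44s-OE libraries against 87.0 and 88.0 CPM in parental HCT116 cells. CCNB2 was at 153 and 168 CPM in the CD44s-OE libraries against 128 and 145 CPM in parental SW480 cells, and at 72.4 and 89.6 CPM in the CD44s-OE libraries against 127 and 107 CPM in parental HCT116 cells. In both genes the CD44s-OE libraries were above the parental ones in SW480 and below them in HCT116.

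**Figure D4:**
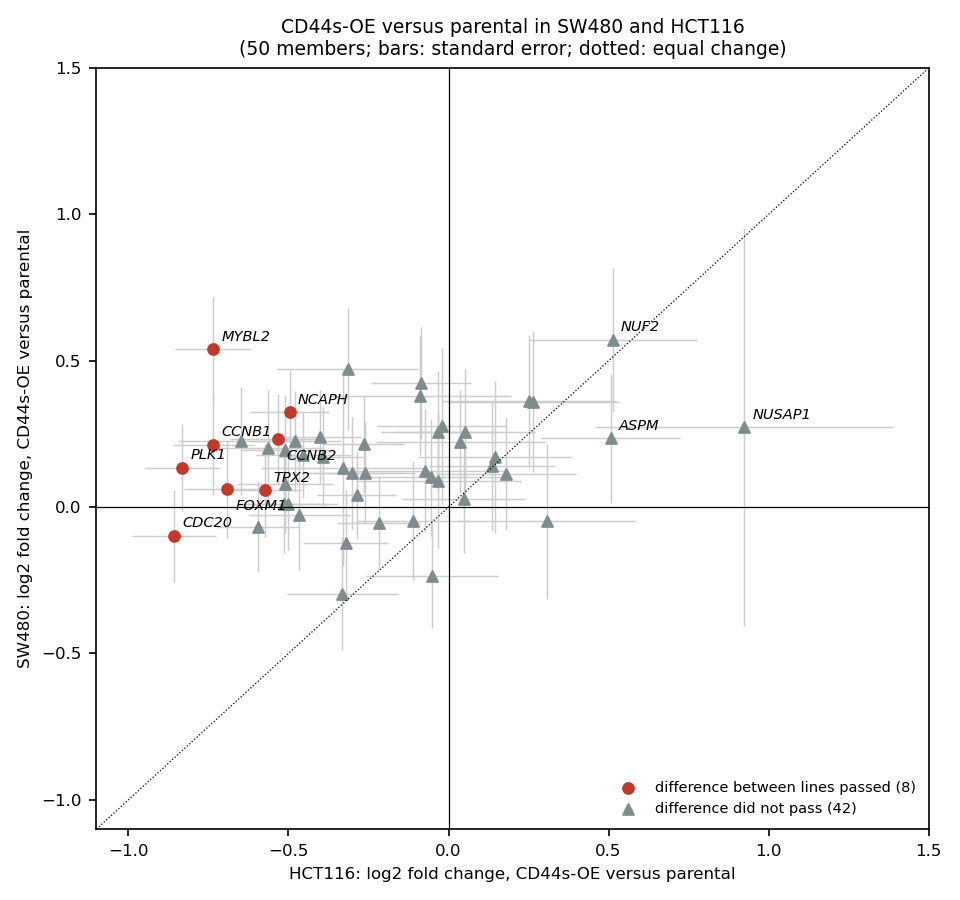
Log2 fold change of CD44s-OE versus parental cells in SW480 (vertical axis) against that in HCT116 (horizontal axis) for the 50 members; bars are standard errors, the dotted line marks equal change, and red circles are the 8 genes whose difference between the lines passed. These 8 lie at -0.86 to -0.50 in HCT116 and at -0.10 to 0.54 in SW480.

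The count of 8 moved with the libraries. It was 3 to 5 without HCT116 parental 1 or 2, HCT116 CD44s-OE 1, either CD44v6-OE library of either line, SW480 parental 1 or either SW480 CD44s-OE library, 13 without HCT116 CD44s-OE 2 and 17 without SW480 parental 2. MYBL2 and PLK1 kept their call under all alternatives other than the fold minimum. For CD44v6-OE, 0 members differed between the lines, against 0.21% of all genes higher and 0.199% lower. The median difference was 0.28, 8 members were higher and 0 lower at an unadjusted p under 0.05 (5.16% and 3.7% of all genes tested), DESeq2 called 0, and 1 passed without SW480 parental 2. For CD44s-OE against CD44v6-OE, only MYBL2 differed, by 1.01 (SE 0.22, edgeR adjusted p = 0.0854), against 0.0869% of all genes higher and 0.404% lower. It did not pass when a parental or CD44v6-OE library of HCT116, SW480 CD44s-OE 2 or a CD44v6-OE library of SW480 was left out, and DESeq2 called 2 members.

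Genes of 3 neighbouring lists were chosen for their roles, also with earlier results of these data known, so their counts are descriptions. They were counted in the same fits, where 5.71% of all genes tested were lower and 8.45% higher in HCT116 CD44s-OE than in parental cells. Of 41 genes of DNA replication and S phase, 24 fell and 0 rose in HCT116 CD44s-OE relative to parental cells, with a median log2 fold change of -0.50. They included MCM2 of the replicative helicase (255 and 226 CPM in the CD44s-OE libraries, 415 and 444 CPM in the parental ones, a fall by 0.84), PRIM1, the catalytic subunit of primase (a fall by 0.90), ORC1 of the origin recognition complex (a fall by 0.76) and RFC5 of the clamp loader (a fall by 0.73). The count was 1 without HCT116 parental 2, 11 without parental 1, 13 without either CD44v6-OE library, 27 (with 1 higher) without CD44s-OE 1 and 34 without CD44s-OE 2. Of 68 other mitosis genes, 14 fell and 0 rose, with a median of -0.26. NCAPD2 of condensin I was at 199.6 and 221 CPM in the CD44s-OE libraries and 509.7 and 408 CPM in the parental ones and fell by 1.13, FAM83D, which guides a kinesin to the spindle, by 0.84, CCNF (cyclin F) by 0.79 and TRIP13, which takes checkpoint complexes apart, by 0.75. That count was 2 without parental 2, 8 without parental 1 or either CD44v6-OE library and 38 without CD44s-OE 2, while 16 fell and 11 rose without CD44s-OE 1. Of 23 regulators of the cell cycle, with the DREAM and MuvB subunits among them, 4 fell and 0 rose. They included TFDP1, the partner of E2F factors, which fell by 0.62, E2F7, an inhibitory E2F, by 0.58, and RBBP4, a MuvB subunit, by 0.36. This count was 0 without parental 2, 1 without parental 1 or either CD44v6-OE library, 7 (with 2 higher) without CD44s-OE 1 and 9 (with 1 higher) without CD44s-OE 2.

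In the remaining comparisons within a line few genes of these lists passed. NCAPD2 fell by 0.74 in HCT116 CD44v6-OE relative to parental cells (edgeR adjusted p = 0.0488). In SW480 CD44s-OE, CENPK, a kinetochore subunit, rose by 0.98 on the log2 scale, with 12.76 and 12.96 CPM against 5.11 and 7.86 CPM in parental SW480 libraries (edgeR adjusted p = 0.0561). SFN, the protein 14-3-3 sigma that holds CDK1 in the cytoplasm, was at 256 and 352 CPM in SW480 CD44s-OE, against 797 and 587 CPM in parental SW480 libraries, and fell by 1.19 (edgeR adjusted p = 0.0129). For the difference between lines in CD44s-OE, 8 of 41 S phase genes, 6 of 68 other mitosis genes and 1 of 23 regulators were higher in SW480, and 1 regulator, SFN, was lower, by 1.01, against 1.65% of all genes tested higher and 2.27% lower. With 1 of 23 each way, the regulators were near that background. Again NCAPD2 led the other mitosis genes, at 1.14, and MCM2 and ORC1 had differences of 0.97 and 0.99.

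The last comparison set the parental lines against each other. Of the 50 members, 14 were higher and 14 lower in SW480 than in HCT116, 28.0% each way, against 31.7% and 29.2% of all genes tested. These shares are near the background. At the fold minimum of 1.5, 1 member was higher and 0 lower, against 16.1% and 12.9% of all genes. That gene was SMC4, a core subunit of condensin, at 178 and 264 CPM in SW480 and 66.4 and 64.7 CPM in HCT116 parental cells (log2 fold change 1.75, SE 0.21, edgeR adjusted p = 9.43e-06), on the scale of the fit of all 12 libraries. ANLN (anillin, of the contractile ring) was at 263 and 279 CPM in SW480, against 92.9 and 112 CPM in HCT116. TOP2A was at 223 and 343 CPM in SW480, against 103 and 116.5 CPM in HCT116. Both were without overlap, with log2 fold changes of 1.40 and 1.37, and ASPM, TTK and NDC80 followed at 1.22, 0.88 and 0.79. TTK was at 0.46 without SW480 parental 2 and did not pass (edgeR adjusted p = 0.212), and at 1.20 without SW480 parental 1.

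On the other side, BIRC5 was at 81.2 and 97.8 CPM in SW480 and 181 and 205 CPM in HCT116 parental cells, which makes -1.11 on the log2 scale (SE 0.14, edgeR adjusted p = 1.91e-05). PRC1 (uncertain, as above), NEK2, BUB1B, KIF18B and CDC20 followed at -0.92, -0.91, -0.79, -0.75 and -0.71. PLK1 and CCNB1 were also lower in SW480 parental cells, by 0.69 and 0.51 on the log2 scale, while FOXM1 was higher by 0.64 and AURKA by 0.77. Of 8 centromere and kinetochore genes, 3 were higher (CENPA, CENPE and NDC80) and 0 lower, and both passenger complex genes among the members were lower. Of 8 cyclins and kinases, 4 were lower (PLK1, CCNB1, CCNA2 and NEK2) and 1 higher. With 31.7% of all genes tested higher and 29.2% lower, counts in groups this small are not read as patterns. CENPE did not pass without SW480 parental 2 (0.32, edgeR adjusted p = 0.39) or HCT116 parental 2 (0.60, edgeR adjusted p = 0.202), and CCNA2 did not pass without SW480 parental 1 (-0.17, edgeR adjusted p = 0.514) or either HCT116 parental library. CENPA did not pass without HCT116 parental 2 (0.43, edgeR adjusted p = 0.113), nor did CDCA8 without SW480 parental 1 (-0.21, edgeR adjusted p = 0.316), either HCT116 parental library or either HCT116 CD44v6-OE library. Of all 28 members that passed, 16 kept their call under every alternative other than the fold minimum. Without SW480 parental 2, 9 members were higher, and without HCT116 parental 1, 9 were lower. The median over the members was 0.07, and it was 0.26 without SW480 parental 1 and -0.26 without SW480 parental 2. Of the genes near these in the cell cycle, E2F2 was lower in SW480 by 2.71 and CCNE1, cyclin E1 of the G1 to S transition, by 2.37, and MAD1L1 of the spindle checkpoint was higher by 4.72 on the log2 scale, with 8.59 and 3.82 CPM in SW480 and 0.266 and 0.195 CPM in HCT116 parental cells.

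**Figure D5:**
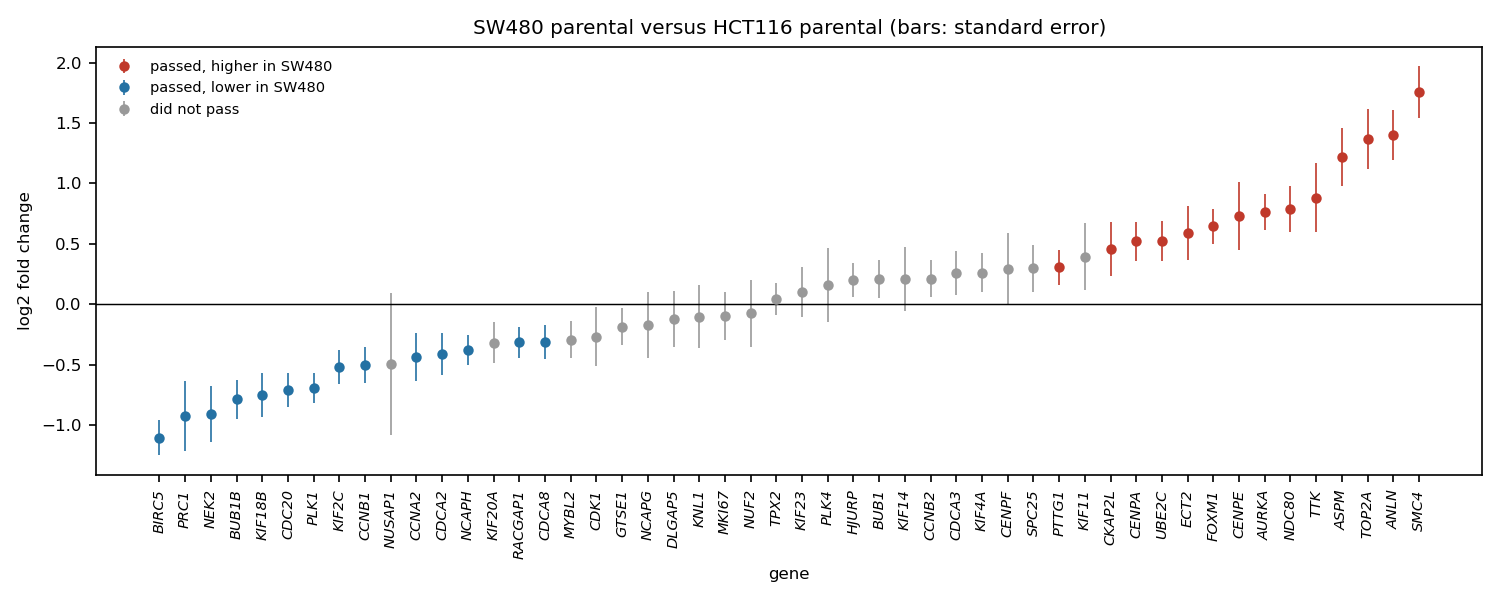
Log2 fold change of SW480 parental versus HCT116 parental cells (vertical axis) for each member, ordered by its value; bars are standard errors, red marks genes that passed as higher in SW480, blue marks genes that passed as lower, and grey marks genes that did not pass. The values run from -1.11 for BIRC5 to 1.75 for SMC4, with 14 genes passing each way.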

How the data were processed

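RNA of 12 libraries (2 for each of 6 groups) was analysed. The authors aligned reads to hg19 with STAR 2.7.9a and counted them per gene with featureCounts of Subread 2.0.3, counting each read of a pair and leaving reads that overlapped more than 1 gene unassigned. The deposited counts were used as they stand. The deposited log2-like values, which the authors made by a variance-stabilizing transformation in DESeq2 1.30.1, served only as an alternative for the member level per library. The members and gene lists were chosen with earlier results of these data known. Counts were fitted in R 4.3.3 with the quasi-likelihood test of edgeR 4.0.16 (TMM scaling, filter on low counts), per line over its 6 libraries, and over all 12 for differences between lines. A gene passed at a Benjamini-Hochberg adjusted p under 0.1 over all genes tested, and the fold minimum was 1.5 on the log2 scale. Levels are CPM, with 0.5 added before logs. A count of 0 in a library allows up to 6 counts, or 0.114 to 0.139 CPM, which covers counting error only. Named genes were 15 anchor members, up to 6 members per comparison and direction with the largest change among those that passed without overlap of the groups, and up to 4 such genes per other list. A further regulator is counted but not reported here by name. Alternatives were other size factors, no filter, DESeq2 1.42.0, a replicate block, halved counts, only the groups compared, stricter thresholds and each library left out. The code was tested on simulated data.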

Additional observations from a re-analysis of the deposited data

Results flagged for a closer look

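The response to CD44s-OE relative to parental cells differed between SW480 and HCT116, by the test of the difference itself in edgeR over 12 libraries, for 8 members. The differences in log2 fold change, SW480 minus HCT116, were 1.298 for MYBL2, 0.99 for PLK1, 0.97 for CCNB1, 0.84 for NCAPH, 0.79 for CCNB2, 0.78 for CDC20, 0.77 for FOXM1 and 0.65 for TPX2. For CD44s-OE relative to CD44v6-OE cells, the same test gave a difference of 1.01 for MYBL2.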

How the results depend on the processing

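For HCT116 CD44s-OE versus parental cells, 18 members lower became 7 with only the groups compared, 9 at an adjusted p under 0.05, 0 at the fold minimum and 4 to 36 with 1 library left out; members higher were 1 with no filter and 0 to 11 with 1 library left out, and the median was -0.49 to -0.19. CDK1, CENPF and TOP2A reversed without HCT116 CD44s-OE 2, to -0.50, -0.36 and -0.41 (without CD44s-OE 1, 0.41, 0.51 and 0.39). For HCT116 CD44v6-OE versus parental cells, members lower were 1 with no filter, 1 with DESeq2, 18 with only the groups compared and 0 to 18 with 1 library left out. For CD44s-OE versus CD44v6-OE in HCT116, they were 2 with no filter, 3 with DESeq2, 0 with only the groups compared, at 0.05 and at the fold minimum, and 0 to 13 with 1 library left out; members higher were 0 to 10 and the median -0.28 to 0.11. In SW480, members higher in CD44s-OE versus parental cells were 1 with no filter or DESeq2 and 0 to 13 with 1 library left out (median -0.025 to 0.33). They were 0 to 1 for CD44v6-OE versus parental cells (median -0.16 to 0.17), and 2 with only the groups compared and 0 to 2 with 1 library left out for CD44s-OE versus CD44v6-OE. For the difference between lines in CD44s-OE, 8 members became 14 with no filter, 13 with DESeq2, 3 with only the groups compared, 4 at 0.05, 0 at the fold minimum and 3 to 17 with 1 library left out (median 0.29 to 0.65). In CD44v6-OE they were 0 to 1 (median 0.15 to 0.45). For CD44s-OE versus CD44v6-OE they were 2 with DESeq2, 0 at 0.05 and at the fold minimum, and 0 to 1 (median 0.038 to 0.41). Between parental lines, members higher were 1 and lower 0 at the fold minimum, and 9 to 16 and 9 to 17 with 1 library left out (median -0.26 to 0.26). With 1 library left out, 1 group holds a single library, so those counts are not comparable with the main fits. Apart from the fold minimum, shares of all genes tested are not given for these alternatives. The causes were not tested.

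The labels do not say whether replicate numbers pair the libraries. Correlations of same-numbered deviations were 0.117, 0.0632 and 0.233 in HCT116 and -0.231, 0.123 and -0.135 in SW480, which does not settle it. With a replicate block, 19 members were lower in HCT116 CD44s-OE than in parental cells, without a share of all genes to set beside them. Of the calls reported, only the difference between lines for TPX2 was lost with that block, at 0.65. With 2 libraries a group, 1 library decides many counts, and the values of NUSAP1 and PRC1 are limited by unassigned reads.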
